A study of Mus musculus with 2 samples.

Results

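The potassium channel genes of the mouse were taken as every gene whose symbol starts with Kcn and that has a protein-coding transcript, leaving out the antisense RNA gene Kcnq1ot1. The rule found 94 genes among the 55536 annotated genes of the deposited gene table. Their levels were measured by total RNA-seq, which reads messenger and non-coding RNA after most ribosomal RNA has been removed. The tissue was the whole adrenal gland of 10-day-old B6CASTF1/J females, a first-generation cross of the C57BL/6J and CAST/EiJ strains. The series has 1 group with 2 libraries, numbered replicate 1 and replicate 2, each made from 300 ng of RNA. No treatment, allele or second condition is named, so only levels and the spread from one library to the other can be given.

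The labels give a different female to each tissue sample, but the descriptions of both libraries repeat 1 female and 1 cDNA number, and both samples carry the same donor entry. Separate animals can therefore not be told from repeated sampling of 1 animal. SDs measure the spread between these 2 samples, which may be technical. Annotated genes held 35287787 expected counts in replicate 1 and 33068243 in replicate 2. The chi-square of the counts was 60.1 per gene on average over 18883 genes, against an average of about 1 for sampling noise. Its median was 1.78, so most genes differed far less than the average. The value of about 1 holds for the average and not for the median, which sampling noise alone puts lower. Over the 74 potassium channel genes in this comparison the average was 47.1 and the median 3.46. The libraries are therefore not 1 library deposited again.

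Potassium channels let potassium leave the cell and so hold the membrane voltage negative. Channels of the Kcnk genes carry a pair of pore domains in each subunit and conduct a steady leak current, those of the Kcnj genes pass current more easily inward than outward, and voltage-gated channels open when the cell depolarises. In zona glomerulosa cells of the adrenal cortex, leak channels of the acid-sensitive TASK family set a very negative resting voltage, and angiotensin II and blood potassium raise aldosterone output by depolarising the cell. In the chromaffin cells of the medulla, voltage-gated and calcium-activated potassium channels end the action potentials that release catecholamines. Mutations of KCNJ5 that spoil the selectivity of its pore are a known cause of aldosterone-producing adenomas in people.

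What joins most of these genes is the selectivity filter, a short stretch that lines the narrowest part of the pore and that reads, as codons, threonine, any residue, glycine, tyrosine or phenylalanine, and glycine. The windows around it are shown for Kcnk3 and Kcnk9, the TASK genes, for Kcnj5, and for Kcnj1, the gene beside Kcnj5 on chromosome 9, because Kcnk3 has the highest level of all 94 genes, Kcnk9 and Kcnj5 are named with it as glomerulosa markers, and Kcnj1 has the widest gap between the libraries. Each window has 45 bases of the coding strand, read from the GENCODE M21 transcripts, and the capitals mark the 15 bases of the signature.
Kcnk3 first pore: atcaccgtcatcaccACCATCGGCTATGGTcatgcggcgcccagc
Kcnk9 first pore: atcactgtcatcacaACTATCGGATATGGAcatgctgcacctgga
Kcnk3 second pore: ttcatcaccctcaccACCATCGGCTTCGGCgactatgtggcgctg
Kcnk9 second pore: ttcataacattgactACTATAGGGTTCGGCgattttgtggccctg
Kcnj5: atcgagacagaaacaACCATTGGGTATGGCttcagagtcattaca
Kcnj1: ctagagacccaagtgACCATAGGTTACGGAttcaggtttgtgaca

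The first window of Kcnk3 and of Kcnk9 spans the junction of exons 1 and 2. The second lies in exon 2, at chr5:30622187-30622231 on the plus strand for Kcnk3 and at chr15:72512704-72512748 on the minus strand for Kcnk9. The window of Kcnj5 is in exon 3 at chr9:32322544-32322588 on the minus strand, and that of Kcnj1 in exon 2 at chr9:32396690-32396734 on the plus strand. All are coding sequence of mm10. The signature starts at coding base 277 and again at coding base 595 in both Kcnk3 and Kcnk9. Kcnk3 and Kcnk9 shared 35 of 45 bases in the first window and 34 in the second, more than the first and second windows shared within Kcnk3, with 26 bases, or within Kcnk9, with 21. Kcnj1 and Kcnj5 shared 29 of 45 bases.

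The signature was searched in frame as the codons ACN, NNN and GGN, then TAC, TAT, TTC or TTT, then GGN, in the leading coding transcript of each gene. It was found once in 55 genes, at 2 places in 10 and not in 29. All 14 Kcnk genes held it, 10 of them at 2 places. It was present in 14 of 15 Kcnj genes, all but Kcnj14, and in 33 of 40 voltage-gated genes. The 7 voltage-gated genes without these letters were all Kcnh genes, and the calcium-gated Kcnn1, Kcnn2 and Kcnn3 also lacked them. For the sperm channel gene Kcnu1 they were not found either, but the transcript searched had only 1143 coding bases. It is 1446 bases long, and another protein-coding transcript of Kcnu1 has 3536 bases, so no absence from the gene can be read from this search. None of the 16 auxiliary subunit genes, whose products do not form a pore, held the signature. In the longest complete coding sequence of each gene, it was found in 66 of the 94 genes, or 70.2%, and in 0.753% of 21638 other protein-coding genes. The number of genes with the signature thus depended on the transcript searched. A match is a match of letters, and its absence says only that these codons are not in the coding sequence searched.

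Levels are given as TPM, which scales reads by transcript length and by the library's total, and a gene counted as detected where both libraries reached 1 TPM. Of the 94 potassium channel genes 31 were detected, or 33.0%, against 58.2% of all 22028 protein-coding genes. A further 6 reached that level in replicate 1 alone, 6 in replicate 2 alone and 51 in neither. At 10 TPM or more in both libraries stood 3 genes, Kcnk3, Kcnn2 and Kcnma1, or 3.19% against 27.8% of protein-coding genes. The median gene of the 94 had a mean of 0.71 TPM. These are levels in whole tissue, where fewer cells of a type and less RNA per cell cannot be told apart. TPM in the gene table is shared out over abundant non-coding and mitochondrial RNAs, and with TPM rescaled over nuclear protein-coding genes 52 of the 94 genes reached 1 in both libraries, or 55.3% against 64.8%.

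**Figure D1:**
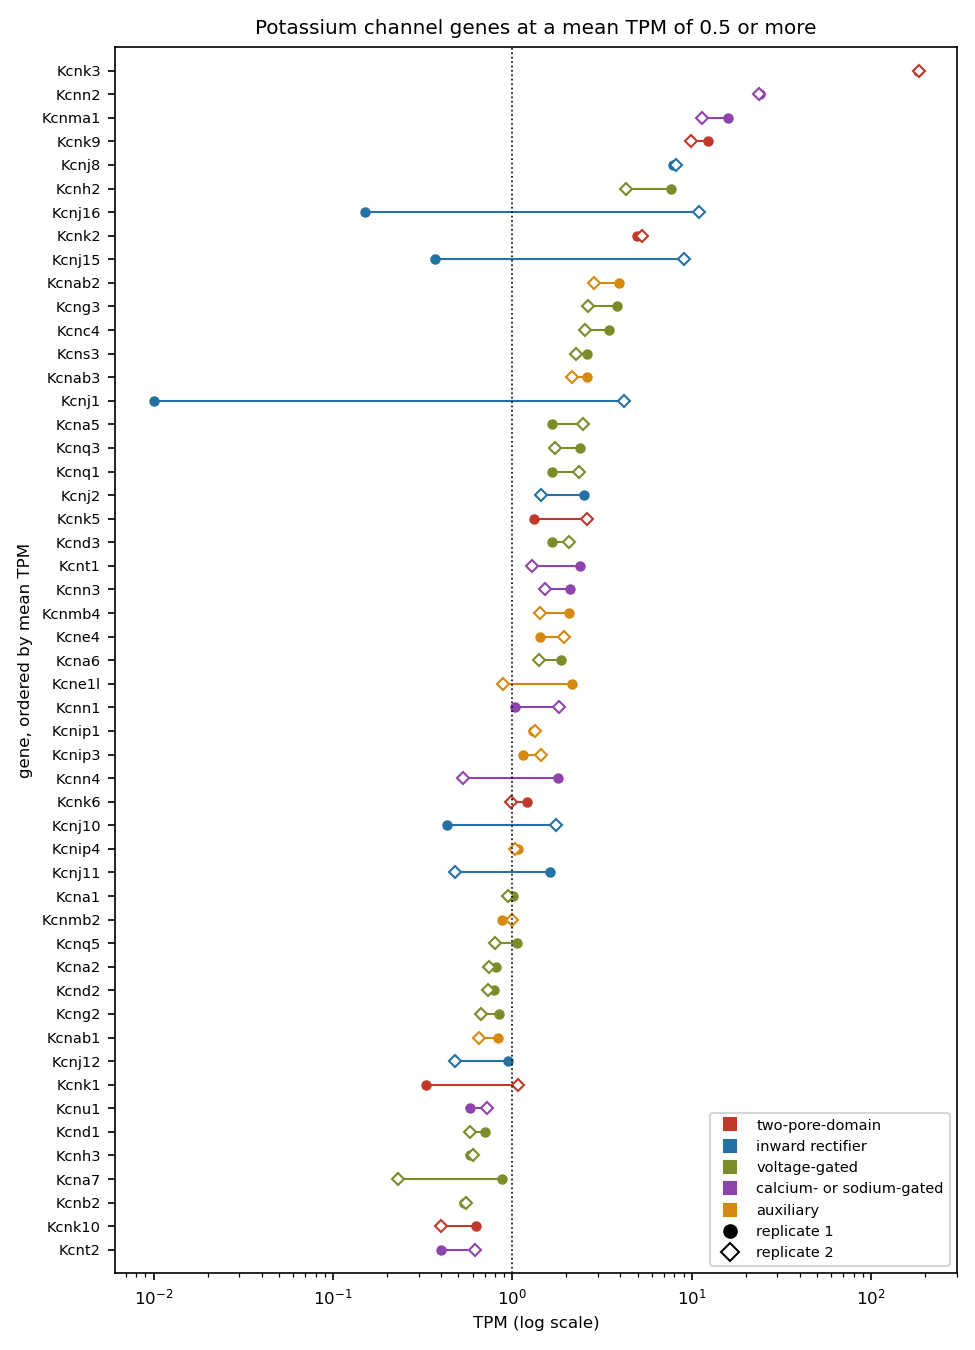
TPM on a log axis of 51 of the 55 potassium channel genes at a mean of 0.5 TPM or more, in order of the mean (4 are not shown); filled circles are replicate 1, open diamonds replicate 2, colours mark the channel class and the dotted line is 1 TPM. Kcnk3 stands apart at 181 and 184 TPM, most genes lie near 1 TPM, and Kcnj16, Kcnj15 and Kcnj1 have the widest gaps between the libraries.

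Kcnk3, the gene of the TASK leak channel, stood at 181.36 TPM in replicate 1 and 184.04 TPM in replicate 2. Its mean was 183 ± 1.90 TPM (SD, n = 2), rank 288 among nuclear protein-coding genes, from 20792 and 19075 expected counts. Kcnk3 (ENSMUSG00000049265.7) lies on chromosome 5 from 30588170 to 30625271. This 1 gene held 53.9% of the summed TPM of all 94 genes in replicate 1 and 53.3% in replicate 2. The level is that of the whole sample, and the cells that held the Kcnk3 RNA were not determined. The next gene, Kcnn2, was 7.70-fold lower by the means, and the ranges of the pair did not overlap.

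Kcnk9, the other TASK gene of the glomerulosa, stood at 12.31 TPM in replicate 1 and 9.86 TPM in replicate 2. It lies on chromosome 15 from 72501089 to 72546340 (ENSMUSG00000036760.7). Replicate 1 was the higher library by less than 2-fold. The log2 ratio of replicate 2 over replicate 1 was -0.26, and the exact binomial test put it beyond counting error, with a Benjamini-Hochberg adjusted p of 5.13e-16. Within each library Kcnk3 exceeded Kcnk9 by a log2 ratio of 4.05 ± 0.24 (SD, n = 2), which is 14.7-fold in replicate 1 and 18.7-fold in replicate 2. The mechanosensitive leak channel gene Kcnk2 followed at 4.96 and 5.28 TPM, below Kcnk3 by a log2 ratio of 5.16 ± 0.05.

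The fourth detected Kcnk gene was Kcnk5, an alkaline-activated leak channel also used by the kidney tubule, at 1.32 TPM in replicate 1 and 2.61 TPM in replicate 2. Kcnk6 stood at 1.21 and 0.98 TPM, and Kcnk1, a weakly conducting channel of epithelia and other tissues, at 0.33 and 1.08 TPM. The remaining 8 Kcnk genes were below 1 TPM in both libraries. Of these, Kcnk7, Kcnk15, Kcnk16 and Kcnk18 had 0 or 1 count in each library, below the 3 counts compatible with a count of 0. Together the 14 Kcnk genes made up 60.3% of the summed TPM in replicate 1 and 59.3% in replicate 2, and without Kcnk3 they made up 13.4% of what remained.

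**Figure D2:**
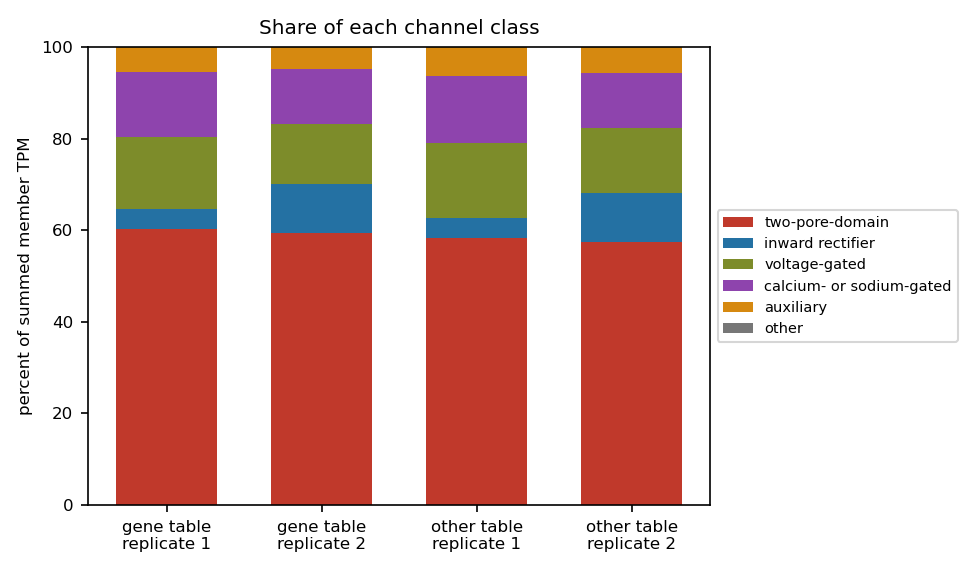
Percent of the summed TPM of the 94 genes in each channel class, stacked to 100, for both libraries in the deposited gene table and in the other deposited quantification. The Kcnk class with a pair of pore domains takes between 57.3% and 60.3% in every bar, and the inward rectifier share is 4.34% in replicate 1 and 10.8% in replicate 2 of the gene table.

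The marker genes Kcnk3, Kcnk9 and Kcnj5 did not stand at like levels. Kcnj5, whose product forms G protein-gated inward rectifiers, had 15 counts and 0.11 TPM in replicate 1, and 27 counts and 0.19 TPM in replicate 2. Both values lie below 1 TPM, and Kcnj5 was the only gene of the 9 glomerulosa markers that was not detected. Kcnk3 exceeded it by a log2 ratio of 10.30 ± 0.54 within the libraries. Kcnj5 (ENSMUSG00000032034.6) lies on chromosome 9 from 32314707 to 32344350. The other deposited quantification gave 0.720 and 0.755 TPM for Kcnj5, with 59 and 66 estimated counts, and a mean ratio to Kcnk3 of 8.38 on the log2 scale. In it the transcript Kcnj5-203 held 61.6% and 43.7% of the gene's TPM, while the gene table's quantification put 0 counts on that transcript. Kcnj5 was below 1 TPM in both, yet its level differed 4.92-fold between the quantifications. The partner subunit genes Kcnj3, Kcnj6 and Kcnj9 were also low, at 0.16 and 0.26, at 0.21 and 0.18, and at 0.02 and 0.03 TPM in replicates 1 and 2.

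Among the other inward rectifiers, Kcnj8, the pore of ATP-sensitive channels in blood vessels, led at 7.90 and 8.20 TPM. Its mean was 8.05 ± 0.212 TPM (SD, n = 2), and it lies on chromosome 6 from 142564837 to 142571614, next to Abcc9. Abcc9 encodes the sulfonylurea receptor that pairs with it and stood at 14.27 and 13.10 TPM. The pancreatic-type pair was lower. Kcnj11 stood at 1.61 and 0.48 TPM and its receptor Abcc8 at 0.56 and 0.16 TPM. Kcnj8 exceeded Kcnj11 by 2.29 and 4.09 on the log2 scale in replicates 1 and 2, so the direction was the same in both while its size differed. The pericyte and smooth muscle list, whose cells are known to use Kcnj8, had all 6 markers detected, with summed TPM of 166.63 and 128.58 and a median log2 ratio of 0.22. Of these, Des, a gene of muscle cells in general, was called higher in replicate 1, at 68.75 and 18.53 TPM.

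Kcnj2, a classical strong inward rectifier that steadies the resting voltage, was the only other detected Kcnj gene, at 2.52 and 1.44 TPM. Kcnj1, Kcnj10, Kcnj15 and Kcnj16 passed 1 TPM in replicate 2 alone and Kcnj11 in replicate 1 alone. Kcnj13 had 0 counts in both libraries, which allows up to 3 counts, or 0.0850 and 0.0907 CPM, which is counts scaled by library size. The Kcnj genes held 4.34% of the summed channel TPM in replicate 1 and 10.8% in replicate 2, a share of 7.59 ± 4.59% (SD, n = 2).

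Calcium- and sodium-gated channel genes included Kcnn2 and Kcnma1, which came next after Kcnk3 in level. Kcnn2, a small-conductance channel opened by calcium through calmodulin, stood at 23.92 and 23.54 TPM, with a mean of 23.7 ± 0.269 TPM (SD, n = 2) and rank 2883 among nuclear protein-coding genes. The libraries differed little for Kcnn2. Kcnma1, the large-conductance BK channel opened by calcium and depolarisation, stood at 15.91 TPM in replicate 1 and 11.33 TPM in replicate 2 and lies on chromosome 14 from 23289431 to 24014491. Replicate 1 was higher for Kcnma1, and the credibility intervals of TPM, the authors' own range for each estimate, did not overlap. On counts scaled for library size its log2 ratio was -0.19 with an adjusted p of 1.99e-04 (exact binomial test, Benjamini-Hochberg), from counts of 2218 and 1729. That is 1.14-fold higher in replicate 1, a smaller difference than in TPM. Kcnma1 was above Kcnk9 within each library, while the ranges of the pair over both libraries overlapped.

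The other small-conductance genes were lower, Kcnn3 at 2.09 and 1.51 TPM and Kcnn1 at 1.03 and 1.83 TPM. Kcnn4, the intermediate-conductance channel of red cells and lymphocytes, passed 1 TPM in replicate 1 alone. The sodium-activated Kcnt1 stood at 2.38 and 1.29 TPM, while on scaled counts replicate 1 was 1.17-fold higher, a smaller difference than in TPM. Kcnu1, known from sperm, had 0.58 and 0.72 TPM. In this class 5 of 8 genes were detected, and it held 14.3% and 12.0% of the summed channel TPM.

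BK channels pair with beta subunits that change their calcium sensitivity. Kcnmb4, known mostly from neurons, stood at 2.06 and 1.43 TPM, and Kcnmb2, known from chromaffin cells, at 0.87 and 1.00 TPM. Kcnmb1, the smooth muscle subunit, had 0.04 and 0.09 TPM. Within the libraries Kcnma1 exceeded Kcnmb4 by a log2 ratio of 2.97 ± 0.03, Kcnmb2 by 3.85 ± 0.49 and Kcnmb1 by 7.81 ± 1.17. All these ratios were larger than their spread, and the ratio to Kcnmb4 was 2.40 in the other quantification. Among the gamma subunits, which are no Kcn genes, Lrrc55 stood at 4.90 and 4.98 TPM and Lrrc26 had 0 counts in both libraries.

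Of the 40 voltage-gated genes 13 were detected. The silent subunits Kcng3 and Kcns3, which form channels only together with other voltage-gated subunits, stood at 3.82 and 2.64 TPM and at 2.60 and 2.25 TPM. The remaining silent subunits named here were low, with Kcnf1 at 0.10 and 0.14 TPM and Kcnv1 at 0.03 and 0.01 TPM.

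Kcnh2, the ERG channel that repolarises the heart and also acts in chromaffin cells, stood at 7.61 TPM in replicate 1 and 4.30 TPM in replicate 2. Replicate 1 was higher and the credibility intervals did not overlap. The log2 ratio was -0.47 with an adjusted p of 8.66e-07 by the exact binomial test with Benjamini-Hochberg adjustment, short of 2-fold. On scaled counts replicate 1 was thus 1.39-fold higher, a smaller difference than in TPM. It was the only detected gene of the 8 in its subfamily.

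Of the M-current genes, which hold down repeated firing in neurons, Kcnq3 stood at 2.39 and 1.72 TPM and Kcnq5 at 1.06 and 0.80 TPM. The epithelial and cardiac Kcnq1 had 1.66 and 2.34 TPM. Kcnc4, of the fast Kcnc subfamily, stood at 3.47 and 2.54 TPM, and Kcnd3, of the transient A-type channels, at 1.67 and 2.07 TPM.

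The Kcna genes, the Shaker-type channels, lie in clusters. On chromosome 6 Kcna5 stood at 1.67 and 2.49 TPM and Kcna6 at 1.87 and 1.40 TPM, while Kcna1, 61945 bases from Kcna6, stood at 1.01 and 0.95 TPM. On chromosome 3 Kcna2 had 0.81 and 0.74 TPM, Kcna3, a channel of T cells, 0.33 and 0.37 TPM, and Kcna10 0 counts in both libraries. Neighbours within a cluster thus differed from just above to below the detection limit, and 2 of the 8 Kcna genes were detected. The genes just above a mean of 1 TPM were Kcnj10, Kcnip4 and Kcnj11, with means of 1.08, 1.05 and 1.04, and those just below were Kcna1, Kcnmb2 and Kcnq5, with 0.98, 0.935 and 0.93.

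Auxiliary subunits had 7 of 16 genes detected. Kcnab2, a cytoplasmic beta subunit of Kcna channels, stood at 3.95 and 2.84 TPM and Kcnab3 at 2.62 and 2.16 TPM. The calcium-binding subunits of Kcnd channels were detected for Kcnip1, at 1.30 and 1.34 TPM, Kcnip3, at 1.15 and 1.45 TPM, and Kcnip4, at 1.08 and 1.03 TPM. Kcnip2, the subunit best known from the heart, was lower at 0.08 and 0.40 TPM. Of the single-span Kcne subunits, Kcne4 had 1.42 and 1.94 TPM and Kcne2 0.04 and 0.02 TPM. Kcnrg, which is no channel subunit but regulates assembly, had 0.18 and 0.08 TPM.

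Of 16 partner genes outside the Kcn symbols 9 were detected, where 58.2% of protein-coding genes were. Of 14 compared 1 was called between the libraries, where 6.8% of all genes compared were. Both were near these backgrounds. The limits were an adjusted p below 0.05 by the exact binomial test with Benjamini-Hochberg adjustment and at least 2-fold. The called gene was Tmem38a, a cation channel of the sarcoplasmic reticulum prominent in muscle, at 23.57 TPM in replicate 1 and 11.16 TPM in replicate 2. Its relative Tmem38b stood at 10.90 and 10.54 TPM and the lysosomal potassium channel gene Tmem175 at 7.54 and 6.70 TPM. The pacemaker channel genes Hcn2 and Hcn3 stood at 2.87 and 3.46 TPM and at 1.88 and 1.66 TPM, and the Kcnd partner Dpp6 at 2.34 and 1.68 TPM.

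The libraries were then compared gene by gene on rounded expected counts, scaled by the trimmed mean of M-values (TMM). An exact binomial test, two-sided, was run on the 18883 genes whose summed count reached 20. The test compares 2 libraries with counting error only and has no replicate check. Called means a Benjamini-Hochberg adjusted p below 0.05 and at least 2-fold. Of the 74 channel genes with enough counts 11 were called, or 14.9%, against 6.8% of all genes compared. Of these, 7 were higher in replicate 2, where the background is 2.75%, and 4 in replicate 1, where it is 4.05%. The median log2 ratio was -0.03 over the channel genes and -0.00 over all genes. The other 63 channel genes compared lay between -0.93 and 1.00 on the log2 scale, and 21 of them were beyond counting error without reaching 2-fold. Without the 2-fold limit, 32 of the 74 channel genes compared passed the test, against 26.6% of all genes compared.

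**Figure D3:**
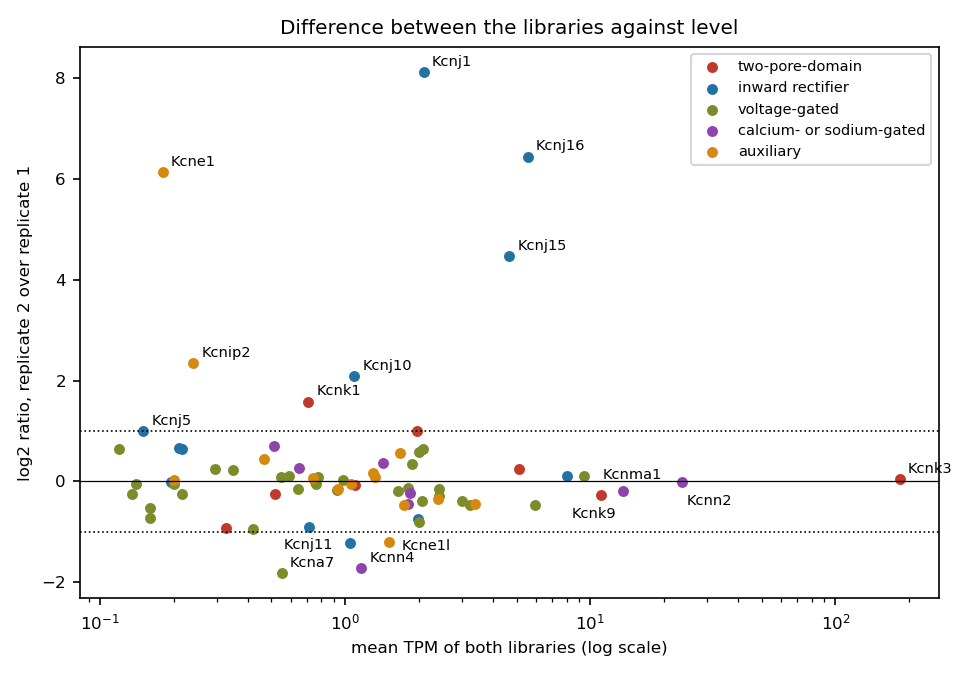
Log2 ratio of replicate 2 over replicate 1 (prior count of 0.5) against mean TPM on a log axis, 1 point for each of the 74 channel genes compared, coloured by class; dotted lines mark 2-fold. The most abundant genes lie near 0, and the points furthest above 0 are Kcnj1, Kcnj16, Kcne1 and Kcnj15.

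Of the 7 genes higher in replicate 2, 4 were inward rectifiers known from the kidney tubule. Kcnj1, the ROMK channel that secretes potassium in the distal nephron, had 0.01 TPM from 1 count in replicate 1 and 4.17 TPM from 372 counts in replicate 2. The ratio was 417-fold (exact 95% interval 74.4 to 16517), with an adjusted p of 5.61e-118. Kcnj16, a subunit of the basolateral channel of the distal tubule, stood at 0.15 and 10.94 TPM, a 90.4-fold ratio (52.6 to 170). Kcnj10, its partner in that channel and a glial channel as well, stood at 0.43 and 1.74 TPM, a 4.26-fold ratio (3.30 to 5.56). Kcnj15, known from the kidney and stomach, stood at 0.37 and 8.99 TPM, a 22.4-fold ratio (17.2 to 29.6). All 4 were low in replicate 1 and high in replicate 2, and their credibility intervals did not overlap between the libraries. For Kcnj15 the TPM of 0.37 in replicate 1 lay below its own interval of 0.50 to 1.35.

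The other genes higher in replicate 2 were Kcne1, Kcnk1 and Kcnip2. Kcne1, the partner of Kcnq1 in the heart, ear and proximal tubule, had 0 counts in replicate 1 and 31 in replicate 2. That is 11.6-fold against the limit of 3 counts in replicate 1, and the lower bound of its exact 95% interval was 8.87-fold. Kcnk1 differed 3.04-fold (1.88 to 5.07). Kcnip2 differed 5.42-fold (2.21 to 16.0) on 6 and 29 counts, and its credibility intervals overlapped.

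Kidney tubule markers moved the same way. All 8 of the list, among them Slc34a1 of the proximal tubule, Slc12a1 of the thick ascending limb and Aqp2 of the collecting duct, were called higher in replicate 2, with a median log2 ratio of 8.61. They summed to 0.97 TPM in replicate 1 and 225.13 TPM in replicate 2, and Slc22a6 had 0 counts in replicate 1. Of the 9 channel genes listed for the kidney tubule 6 were called higher in replicate 2, which are Kcnj1, Kcnj10, Kcnj15, Kcnj16, Kcnk1 and Kcne1. Kcnk5 and Kcnq1 were higher there beyond counting error at under 2-fold, with log2 ratios of 1.00 and 0.58, and Kcnt1 was not called, at -0.23. The list had been chosen with these results known and is no independent evidence. Without these 9 of the 74 channel genes compared, 5 were called, 1 of them higher in replicate 2. Over all genes compared, 6.8% were called in either direction and 2.75% higher in replicate 2. The part of the kidney markers in the differences of the channel genes was not tested.

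**Figure D4:**
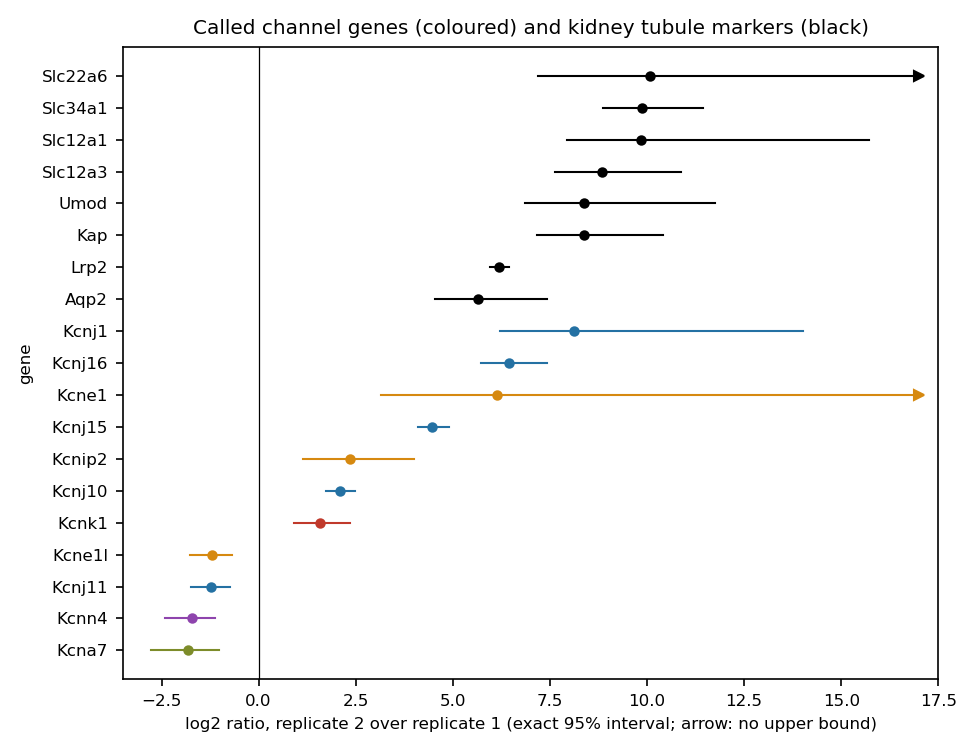
Log2 ratio of replicate 2 over replicate 1 with exact 95% intervals for the 11 called channel genes (coloured by class) and the 8 kidney tubule markers (black); arrows have no upper bound because replicate 1 had 0 counts, and the points of Kcne1 and Slc22a6 depend on the prior count of 0.5. All kidney markers lie to the right of 0, as do 7 channel genes, and 4 channel genes lie to the left.

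Among the Kcnj genes next to a called one, Kcnj5, Kcnj2 and Kcnj6 were compared and none was called. Of all genes compared 6.8% were called, and so few neighbours cannot show a difference from that share. Kcnj5 and Kcnj1 lie 28143 bases apart on chromosome 9, and Kcnj5 had a log2 ratio of 0.99 with an adjusted p of 0.0972 by the exact binomial test with Benjamini-Hochberg adjustment. Kcnj2 and Kcnj16 lie 38196 bases apart on chromosome 11. Kcnj2 had 2.52 TPM in replicate 1 and 1.44 TPM in replicate 2, and Kcnj16 the opposite order at 0.15 and 10.94 TPM, so that the log2 ratio of Kcnj2 over Kcnj16 was 4.07 in replicate 1 and -2.93 in replicate 2. Kcnj15 was called, and Kcnj6, which lies 259857 bases from it on chromosome 16, was not. Kcne2, 47853 bases from Kcne1, had too few counts to compare. Differences of these pairs in the ratio itself were not tested.

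Higher in replicate 1 were Kcna7, Kcnn4, Kcnj11 and Kcne1l. Kcna7, a channel of skeletal muscle and heart, stood at 0.87 and 0.23 TPM, 3.63-fold higher in replicate 1 (2.04 to 6.87). Kcnn4 stood at 1.79 and 0.53 TPM, 3.34-fold higher (2.16 to 5.31). Kcnj11 was 2.35-fold higher (1.66 to 3.37), with credibility intervals that overlapped. Kcne1l, an X-linked Kcne subunit, stood at 2.14 and 0.89 TPM, 2.32-fold higher (1.60 to 3.43). These are differences of a few-fold on 15 to 121 counts, far smaller than those of Kcnj1, Kcnj15 and Kcnj16.

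Liver, muscle and blood markers were in the main higher in the same library. The 6 liver markers summed to 5511 TPM in replicate 1 and 1064 TPM in replicate 2, and all were called. The 6 skeletal muscle markers summed to 2986 and 1033 TPM, with 5 called higher in replicate 1 and Myh4 in replicate 2. The erythroid markers summed to 3066 and 1782 TPM with 2 of 4 called, and the lymphocyte markers to 10.55 and 5.03 TPM with 2 of 4 called. The 4 brown fat markers went the other way, summing to 2938 and 3515 TPM with a median log2 ratio of 0.27 and 0 called. The part of any of these tissues in the 4 channel genes was not tested.

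Markers of the gland's own cells were within a narrower range. The 9 glomerulosa markers, which hold Kcnk3, Kcnk9 and Kcnj5 themselves, summed to 408.57 and 410.01 TPM with 0 called, and the 9 chromaffin markers to 1083 and 1046 TPM with 0 called. The 5 neuron markers summed to 94.97 and 71.19 TPM, with a median log2 ratio of -0.33 and 0 called. Of the 5 fasciculata markers, summing to 576.5 and 701.15 TPM, Akr1b7 was called higher in replicate 2. Beside these, Kcnk3 had a log2 ratio of 0.04 and Kcnn2 -0.01. With total counts as the scale, in place of TMM, the ratio of Kcnk3 was -0.03. The brown fat markers also had 0 called, with a median log2 ratio of 0.27. Whether the Kcnk3 RNA came from cells of the gland or from brown fat was not tested.

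Part of the RNA of some channel genes was assigned to transcripts that are not annotated as protein-coding. For Kcnk3 these took 9.26% and 12.0% of the gene's TPM, and for Kcnn2 34.9% and 34.8%. Kcnk2-203, annotated as a target of nonsense-mediated decay, a pathway that removes transcripts with early stop codons, was the leading transcript of Kcnk2 with 64.4% and 62.5%. In the other quantification it held 44.9% and 38.7% and was still the leading one. Kcnt1 had 84.8% and 69.3% in non-coding transcripts, many of them retained introns. Above 50% in both libraries were 2 of the 31 detected channel genes, or 6.45%, against 7.68% of 12800 detected nuclear protein-coding genes, so the share was near the background. Counting protein-coding transcripts alone, 25 channel genes were detected in place of 31. The genes lost were Kcna6, Kcnab3, Kcnip4, Kcnn3, Kcnq3 and Kcnt1.

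**Figure D5:**
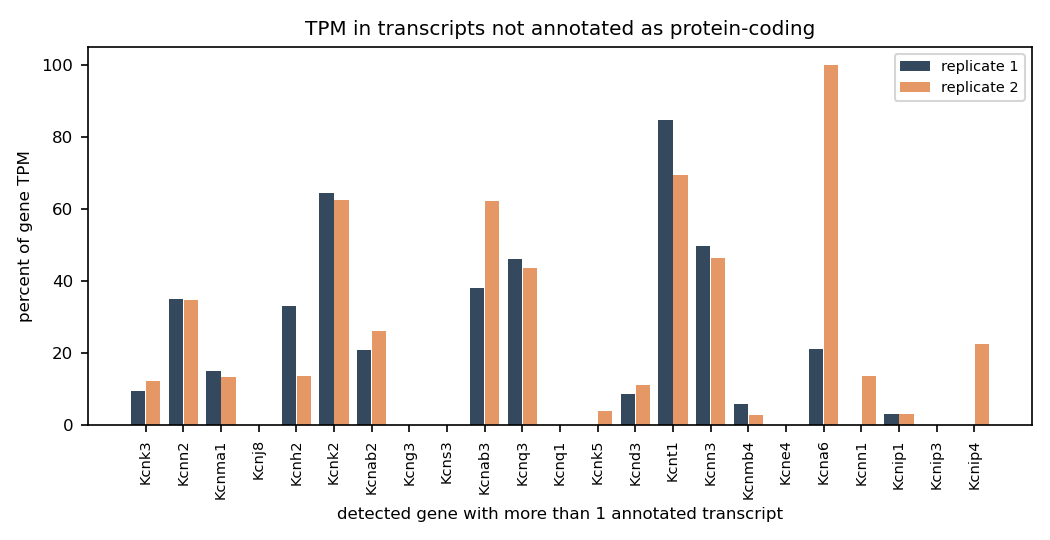
Percent of each gene's TPM in transcripts not annotated as protein-coding, for the detected channel genes shown, each with more than 1 annotated transcript; dark bars are replicate 1 and light bars replicate 2, and no bar means 0. Kcnk2 and Kcnt1 are above 50% in both libraries, and Kcna6 goes from 21.1% to 100%.

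Kcna6 shows how far such an assignment can be read. Kcna6-204, a coding transcript of 5836 bases, held 1.24 TPM in replicate 1 and 0 in replicate 2, and Kcna6-201, a decay target of 5827 bases, 0 in replicate 1 and 1.22 TPM in replicate 2. Taken alone this is a complete exchange of transcripts between the libraries. The other quantification of the same libraries gave the exchange in the opposite direction, with Kcna6-201 at 1.76 TPM in replicate 1 and Kcna6-204 at 1.65 TPM in replicate 2. The gene's own level was 1.87 and 1.40 TPM in the first and 2.47 and 1.86 TPM in the second, so the gene level had the same order in both while the transcript did not.

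Across the 31 detected channel genes the other quantification gave higher TPM by a median of 1.43-fold, from 1.20 to 2.21, against a median of 1.51 over 12800 detected nuclear protein-coding genes. The 29 genes within 2-fold leave out Kcnmb4 and Kcnab2, at 2.21-fold and 2.13-fold. Kcnk5 stood at 1.76, and low values were found for Kcne4 at 1.20, Kcnip4 at 1.31 and Kcnk9 at 1.32. Kcna6 at 1.32, Kcnk2 at 1.33 and Kcnk3 at 1.34 were also low. With TPM of both quantifications rescaled over nuclear protein-coding genes, the median ratio was 0.871, from 0.729 to 1.35. Only 5 of the 31 genes were then above 1, so the direction depended on the scale of TPM. The leading transcript was the same for 27 of 31 genes, and Kcna6, Kcnab2 and Kcns3 were among those where it differed. The same 11 genes were called between the libraries in both quantifications.

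Overlapping genes may limit some values. Of the 94 genes 28 share exon bases with another gene, 26 of them with a gene on the opposite strand. Kcnk3 shares 229 bases with Gm9899, listed at 6.51 and 6.73 TPM, Kcnq1 shares 121 with Kcnq1ot1, at 1.84 and 1.43 TPM, and Kcnmb4 shares 693 with Kcnmb4os2, at 0.56 and 1.65 TPM. The sources used here do not say whether counting used the strand, and what this means for reads of such pairs was not tested. Kcnj13 shares 355 bases with Gigyf2 on the opposite strand, at 23.32 and 24.84 TPM, and had 0 counts in both libraries. Expected counts were whole for all 94 genes in replicate 2 and for 93 in replicate 1. The exception was Kcnk4, which overlaps Catsperz on the same strand.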

How the data were processed

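The members, their classes and the lists were chosen with earlier results of these data known. The authors deposited, per library, a gene and a transcript table with expected counts, TPM and each transcript's percent of its gene, with the column names of RSEM, and another transcript table with estimated counts and TPM, with the column names of kallisto. The gene table's bounds of the credibility interval of TPM, a signal range, are the authors' own, and the authors' TPM lay outside its own interval for 9 of the 94 genes in replicate 1 and 10 in replicate 2. Assembly mm10 and annotation M21 are named in the deposited notes. The sources used here name neither the aligner and quantifiers nor any use of CAST/EiJ variants. Features with a bare number as ID took 1.96e-05% and 1.80e-05% of the counts, spike-ins 0.979% and 0.929%, and both stayed out of library sizes and tests.

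Expected counts were rounded and scaled by TMM in edgeR 4.0.16 (R 4.3.3). A quasi-likelihood test needs a contrast, which 1 group does not give. The exact two-sided binomial test, Clopper-Pearson 95% intervals and Benjamini-Hochberg adjustment over 18883 genes were computed with scipy 1.17.1, numpy 2.4.6 and pandas 2.3.3 under Python 3.11.15, and figures with matplotlib 3.10.9. Log2 ratios use a prior count of 0.5. Intervals and the floor of 3 counts cover only counting error, as the sources state no molecular identifiers.

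The rule for named genes takes the 20 highest genes, the 3 marker genes, the highest of each subfamily, all called genes, the 3 just above and below a mean of 1 TPM, those at 0 counts, the 5 that differ most between the quantifications in each direction, those with different leading transcripts, neighbouring pairs and the 9 genes with kidney roles; other genes were chosen after their values were seen. A few genes under this rule are left out of the text and figures. Proteins were not analysed here. Alternatives were DESeq2 1.42.0 size factors, total counts, other filters and limits, the other quantification, rescaled TPM and leaving out each library.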

Additional observations from a re-analysis of the deposited data

How the results depend on the processing

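The same 11 channel genes were called under DESeq2 size factors, with no filter on counts and in the other quantification; total counts added Kcnc1, and 9 of them also had credibility intervals apart at 2-fold or more in TPM (an alternative chosen after seeing the data). Without the 2-fold limit 32 of the 74 channel genes compared were called, 15 higher in replicate 2 and 17 in replicate 1. Of all genes compared 26.6% were called in either direction. Without the 9 genes with kidney roles, also chosen after seeing the data, 5 were called, 1 of them higher in replicate 2. Over all genes compared, the shares called were 6.8% in either direction and 2.75% higher in replicate 2. The 31 detected genes became 14 at a limit of 2 TPM, 52 with TPM rescaled over nuclear protein-coding genes, and 37 without replicate 1 or without replicate 2. Without Kcnk3 the class shares of the mean became 13.4% for the Kcnk class, 16.3% for inward rectifiers, 30.9% for voltage-gated, 28.3% for calcium- or sodium-gated, 10.9% for auxiliary genes and 0.0828% for Kcnrg. In the other quantification the Kcnk share was 57.8% and the auxiliary share 6.04%, against 59.8% and 5.07%. Of 188 log2 ratios of 47 named genes under 4 alternatives, 184 kept their direction and side of the threshold. The 4 that reversed were small: with total counts Kcna1 at -0.047 and Kcnk3 at -0.031, which shifted the median of all genes to -0.07, and in the other quantification Kcna3 at -0.15 and Kcnip4 at 0.23; the cause in the latter was not tested. No paired analysis was possible because the series has 1 group. At this depth 20 of the 94 genes had a summed count below 20 and were not compared.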
